A study of Mus musculus with 10 samples.

Results

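The transcripts of the Toll-like receptors (TLRs) were measured in microglia taken from the brains of mice that had been given GW2580 or its vehicle. The family was taken by gene symbol as 10 receptors, Tlr1, Tlr2, Tlr3, Tlr4, Tlr5, Tlr6, Tlr7, Tlr8, Tlr9 and Tlr13, out of 46152 genes counted. All 10 exceeded 1 CPM, the count of a gene scaled to the size of its library, in 3 or more libraries and so were among the 28419 genes tested. Of the 10 receptors, 9 were measured at a higher level with GW2580, against 48.4% of the genes tested. Of the 10, 5 (Tlr2, Tlr4, Tlr7, Tlr8 and Tlr13) were called higher, against 4.01% of the genes tested. A gene was called if it differed by more than 2-fold at an unadjusted p under 0.05. Tlr9 was the 1 receptor measured at a lower level. The adjusted p-values of the receptors ranged from 0.280 to 0.673, so none passed an adjusted p of 0.05.

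TLRs are membrane receptors of innate immune cells that bind molecular patterns of microbes and of damaged tissue and signal through an intracellular TIR domain. TLR1, TLR2, TLR4, TLR5 and TLR6 act at the cell surface and bind lipoproteins, lipopolysaccharide and flagellin, whereas TLR3, TLR7, TLR8, TLR9 and TLR13 bind nucleic acids inside endosomes. Microglia, the resident macrophages of the brain, carry most of the family and depend on signalling through the receptor CSF1R, whose kinase GW2580 blocks.

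The study compared 5 libraries of the Vehicle group with 5 of the GW2580 group, each from 1 adult C57BL/6J mouse and with 2 male and 3 female mice per group. GW2580 was given by oral gavage at 80 mg/kg/d for 8 days, and control mice received the carrier, Tween 80 with Hydroxymethyl Propyl-cellulose, in the same way. Cells were enriched on Percoll and selected magnetically for CD11b, a surface protein that monocytes, granulocytes and border macrophages share with microglia. The assigned fragments ranged from 12550418 to 20854218 per Vehicle library and from 13228819 to 26079343 per GW2580 library.

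Several libraries stood apart from the rest. All 10 microglia markers passed the filter, and their summed level ranged from 12675 to 28632 CPM with Vehicle, lowest in Vehicle 5, and from 17915 to 59102 CPM after GW2580, highest in GW2580 3. Oligodendrocyte markers summed to 15324 CPM in Vehicle 2 and 3711 CPM in Vehicle 5 against 154 to 297 CPM in the other Vehicle libraries and 162 to 1487 CPM after GW2580. Summed markers of monocytes and granulocytes ranged from 561 to 27823 CPM in the Vehicle group and from 700.4 to 12220 CPM after GW2580. The highest sum was that of Vehicle 1, above the sum of its microglia markers (22368 CPM). Of these 10 markers, 2 were measured higher with GW2580 and 8 lower, with a median log2 fold change of -1.08. Of them 0 were called higher and 1 lower, against 4.01% and 6.7% of all genes. The share of uniquely aligned fragments that lay on no exon was 68.0%, 70.8% and 64.7% in GW2580 1, 4 and 5, above all Vehicle libraries (47.7 to 59.8%), and 56.1% and 47.1% in GW2580 2 and 3. Levels tended to increase with gene length in Vehicle 5, by 0.17 log2 CPM per doubling of length, and to decrease in Vehicle 4, by -0.10, with the other libraries in between. The scaling factor was smallest in GW2580 3 (0.691) and largest in GW2580 4 (1.61). Results that rest on these libraries are given with and without them.

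The RefSeq promoter table (GRCm38.p6) held 8 of the 10 receptors, without Tlr4 and Tlr7. Windows of 250 bases before each listed start site were read. For Tlr1, Tlr2, Tlr3, Tlr5 and Tlr6, 5 of the 8, at least 1 window lies wholly or partly inside the annotated gene, whose outermost start is another one. Sequence is shown for Tlr8 and Tlr13, which were called higher, and for Tlr9, which was measured at a lower level, up to the first annotated exon. For Tlr2, the receptor of highest level, the 30 bases around a motif are shown. They are written 5′ to 3′ along the gene, and capitals mark matches to the short motifs searched.
Tlr2 (chr3:83841761-83841790, minus strand): aggacacctgGGGAATTCCCacacggagcc
Tlr8 (chrX:167264330-167264579, minus strand): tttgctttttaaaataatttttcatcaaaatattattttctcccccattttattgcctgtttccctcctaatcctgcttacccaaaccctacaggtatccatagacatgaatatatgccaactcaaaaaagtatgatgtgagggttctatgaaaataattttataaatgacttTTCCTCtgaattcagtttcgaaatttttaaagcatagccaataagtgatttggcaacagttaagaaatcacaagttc
Tlr13 (chrX:106143025-106143203, plus strand): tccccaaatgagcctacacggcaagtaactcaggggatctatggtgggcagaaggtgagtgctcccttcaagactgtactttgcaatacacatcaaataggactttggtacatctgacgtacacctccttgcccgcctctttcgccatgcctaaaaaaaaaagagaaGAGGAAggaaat
Tlr9 (chr9:106222348-106222597, plus strand): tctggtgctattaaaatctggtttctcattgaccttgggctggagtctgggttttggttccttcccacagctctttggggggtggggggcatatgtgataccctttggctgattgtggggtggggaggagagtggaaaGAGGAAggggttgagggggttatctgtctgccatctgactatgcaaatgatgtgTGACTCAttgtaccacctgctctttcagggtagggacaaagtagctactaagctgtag

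The motifs were searched on both strands. GAGGAA, a core bound by the myeloid factor PU.1, was present in windows of Tlr1, Tlr8, Tlr9 and Tlr13, that is 4 of 8 receptors, and in those of 25.9% of all 27025 genes in the table. In Tlr13 it began 83 bases, in Tlr9 112 bases and, on the opposite strand, in Tlr8 77 bases before the start site. GGGANTTCC, a form of the NF-kB motif, was present in Tlr2, 172 bases before the listed start site and inside the annotated gene, on the strand of the gene with an overlapping match on the other strand, and in 1.63% of genes. The AP-1 motif TGANTCA lay 58 bases upstream of Tlr9 and in 7.82% of genes. Of the longer forms of the PU.1 core, AGGAAGT (8.80% of genes) matched Tlr1 and Tlr6, and GAGGAAGT (2.79% of genes), which overlaps both shorter forms, matched Tlr1. The matches of Tlr1 and Tlr6 also lie inside the annotated genes. GGAANNGAA (8.01% of genes) and GGAAGTGAA (0.585% of genes), joint forms of PU.1 and IRF motifs, matched none of the 8 receptors. A match is a run of letters and not a measured site. Tlr8 and Tlr13, which were called higher, held the GAGGAA core, and so did Tlr9. Tlr2, also called higher, held no match to it, and the called receptors Tlr4 and Tlr7 could not be searched.

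Among the surface receptors, Tlr2 (chr3:83836272-83841824), which pairs with TLR1 or TLR6 to bind bacterial lipoproteins, was measured at 92.6, 60.3, 79.2, 59.1 and 76.8 CPM in Vehicle 1 to 5 and at 177, 136, 286, 97.8 and 50.3 CPM in GW2580 1 to 5. GW2580 1 to 4 lay above every Vehicle library, whereas GW2580 5 lay below all of them. Its level was 73.6 ± 14.1 CPM in the Vehicle group and 149 ± 89.6 CPM after GW2580 (SD, n = 5 each), a log2 fold change of 1.02 ± 0.41 (SE; edgeR p = 0.0272, adjusted p = 0.297; two-sided exact permutation p = 0.103). In bulk RNA, fewer cells of a type and less RNA per cell cannot be told apart. The call of Tlr2 was lost in 11 of the 25 other settings tried. Among these were DESeq2 (log2 fold change 0.99), limma-voom (0.81) and the mean level of the microglia markers as a term in the model (0.60). Without 1 library the call was lost in 4 cases, with log2 fold changes of 0.95 without Vehicle 2, 0.95 without Vehicle 4, 0.96 without GW2580 1 and 0.65 without GW2580 3.

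Tlr4 (chr4:66827551-66846581), the receptor of lipopolysaccharide, was measured at 28.1, 25.1, 30.4, 26.9 and 10.1 CPM in the Vehicle libraries and at 90.6, 41.1, 123, 56.3 and 24.4 CPM in the GW2580 libraries. The first 4 GW2580 libraries lay above all Vehicle libraries, and GW2580 5 lay within their range. The log2 fold change was 1.47 ± 0.45 (SE; edgeR p = 0.00512, adjusted p = 0.280; exact permutation p = 0.0397), the largest of the 10 receptors. Vehicle 5 had the lowest level of Tlr4 by a wide gap, and without it the log2 fold change was 1.28 and the call remained. Tlr4 was called in each of the 25 other settings tried.

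Tlr1 (chr5:64924680-64933600), a partner of TLR2, was measured at 28.1, 18.6, 24.9, 16.7 and 18.6 CPM in the Vehicle group and at 40.4, 33.1, 72.6, 28.2 and 18.01 CPM after GW2580. Tlr6 (chr5:64953092-64970942), the other partner, was measured at 16.2, 14, 16.0, 14.5 and 15.6 CPM in the Vehicle group and at 28.4, 20.2, 46.7, 21.1 and 11.4 CPM after GW2580. In both receptors 4 GW2580 libraries exceeded every Vehicle library and GW2580 5 did not. Their log2 fold changes of 0.85 ± 0.37 for Tlr1 and 0.75 ± 0.34 for Tlr6 had unadjusted edgeR p-values of 0.0357 and 0.0485. Both stayed under the 2-fold threshold, so neither was called. The edgeR adjusted p-values were 0.312 and 0.338, and the exact permutation p-values were 0.0714 and 0.111. Without GW2580 3 the log2 fold changes were 0.49 and 0.41, and neither unadjusted p was under 0.05. The genes are neighbours on the minus strand, and their longest transcripts shared 454 windows of 50 bases (15.3% of those of Tlr1 and 12.5% of those of Tlr6), so fragments in this stretch could align to both genes and the levels of the pair are less certain. Tlr6 also overlaps Fam114a1 and Mir574 on the other strand, and counting disregarded strand.

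Tlr5 (chr1:182954752-182976044), the flagellin receptor, was measured at 5.57 to 11.3 CPM in the Vehicle group and at 6.59 to 15.9 CPM after GW2580, and 1 GW2580 library exceeded the Vehicle range. Its log2 fold change of 0.37 ± 0.32 did not pass the test (edgeR p = 0.264, adjusted p = 0.591; exact permutation p = 0.286), and was 0.16 without GW2580 3.

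**Figure D1:**
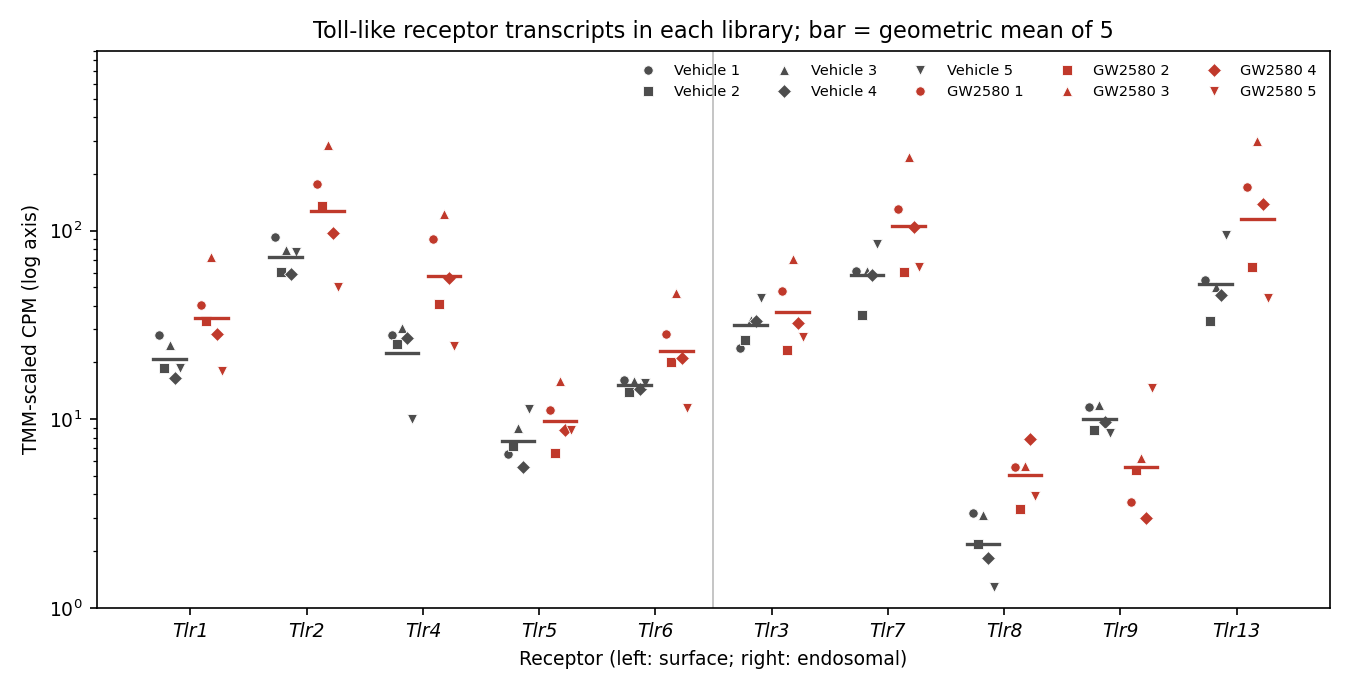
TMM-scaled CPM (log axis) of the 5 surface and 5 endosomal receptors in each library, grey for Vehicle and red for GW2580, with 1 symbol per replicate number and a bar at the geometric mean of the 5 libraries of a group. GW2580 3 was the highest library in 8 of the 10 receptors, GW2580 5 lay near the Vehicle libraries in most, and Tlr8 was the receptor in which the groups did not overlap.

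Among the endosomal receptors, Tlr8 (chrX:167241123-167264329), a sensor of RNA and its breakdown products, had the lowest level. It was measured at 3.18, 2.17, 3.09, 1.84 and 1.29 CPM in the Vehicle group and at 5.60, 3.36, 5.67, 7.86 and 3.93 CPM after GW2580, from 23 to 166 counts per library. All 5 GW2580 libraries exceeded all 5 Vehicle libraries, a lack of overlap also found in 3.03% of all genes tested. The log2 fold change was 1.20 ± 0.36 (SE; edgeR p = 0.00475, adjusted p = 0.280), and the exact permutation p of 0.00794 is the smallest that 5 against 5 libraries allow. The call of Tlr8 held without any single library. It was lost without Vehicle 2 and Vehicle 5 together, where the log2 fold change was 0.96.

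Tlr13 (chrX:106143275-106160493), which binds bacterial ribosomal RNA, was measured at 54.8, 33.3, 50.5, 45.5 and 94.7 CPM in the Vehicle group and at 171, 64.1, 300.0, 138 and 43.7 CPM after GW2580. GW2580 1, 3 and 4 exceeded the highest Vehicle library, which was Vehicle 5. The log2 fold change was 1.36 ± 0.49 (SE; edgeR p = 0.0151, adjusted p = 0.280; exact permutation p = 0.0794). Without GW2580 3 it was 0.90 and Tlr13 was no longer called.

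Tlr7 (chrX:167303380-167330574), the receptor of single-stranded RNA and a neighbour of Tlr8, was measured at 61.4, 35.9, 60.8, 58.6 and 85.4 CPM in the Vehicle group and at 131, 60.8, 244, 104 and 64.1 CPM after GW2580. The same 3 GW2580 libraries as for Tlr13 lay above the Vehicle range. Its fold of 2.00 (log2 1.00 ± 0.41, SE; edgeR p = 0.0296, adjusted p = 0.302; exact permutation p = 0.0635) sat just over the threshold, and the call was lost in 16 of the 25 other settings. Leaving out 1 library ended it in 6 cases, with log2 fold changes of 1.00 without Vehicle 1, 0.85 without Vehicle 2, 1.00 without Vehicle 3, 0.99 without Vehicle 4, 0.98 without GW2580 1 and 0.58 without GW2580 3.

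Tlr3 (chr8:45395665-45411075), the receptor of double-stranded RNA, was measured at 23.7 to 44.0 CPM in the Vehicle group and at 23.2 to 70.7 CPM after GW2580. Its log2 fold change of 0.33 ± 0.35 did not pass the test (edgeR p = 0.367, adjusted p = 0.673; exact permutation p = 0.500), and was 0.03 without GW2580 3.

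Tlr9 (chr9:106222598-106226876), the receptor of unmethylated CpG DNA, was measured at 11.6, 8.75, 11.9, 9.70 and 8.43 CPM in the Vehicle group and at 3.65, 5.40, 6.22, 2.98 and 14.7 CPM after GW2580. GW2580 1 to 4 lay below every Vehicle library and GW2580 5 lay above all of them. The log2 fold change of -0.61 ± 0.40 did not pass the test (SE; edgeR p = 0.148, adjusted p = 0.476; exact permutation p = 0.0794). Without GW2580 5 it was -1.22, past both thresholds, where 13.2% of all genes were called lower, and without Vehicle 5 and GW2580 5 it was -1.30, where 15.2% were, against 6.7% with all libraries. B cells and plasmacytoid dendritic cells also carry TLR9, and 10 markers of these cells summed to 584 to 815 CPM in the Vehicle group and 266 to 649 CPM after GW2580. Of the 9 tested, 7 were measured lower and 2 higher, and the median log2 fold change was -0.54. Of them 1 was called higher and 1 lower, against 4.01% and 6.7% of all genes. The sum was lowest in GW2580 4 (266 CPM), as was Tlr9. GW2580 5, with the highest Tlr9, had a sum of 509 CPM, below every Vehicle library. Vehicle 5 had the highest sum (815 CPM) and the lowest Tlr9 of the Vehicle group. The part of these cells in the level of Tlr9 was not tested.

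**Figure D2:**
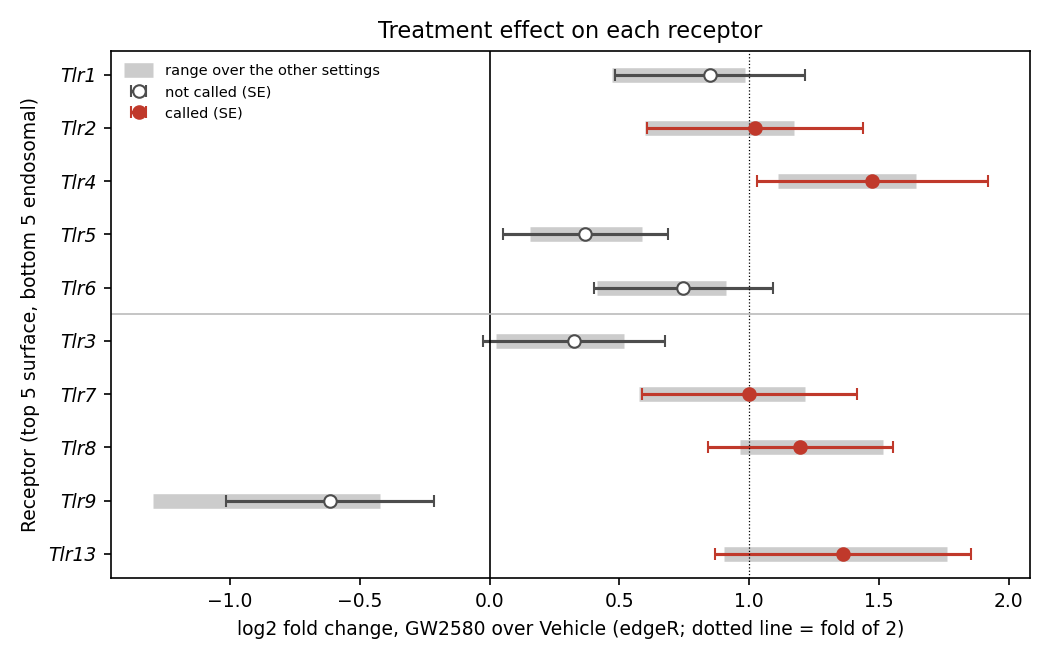
log2 fold change of each receptor (GW2580 over Vehicle, edgeR, points with SE, n = 5 per group), filled red where called and open where not, with grey bands for the range over the other settings. The bands of 9 receptors lay above 0 and that of Tlr9 below 0, and the bands of Tlr2, Tlr7, Tlr8 and Tlr13 crossed the dotted line at a fold of 2.

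Of the 10 receptors, 5 were called higher against 4.01% of the 28419 genes tested, and 0 were called lower against 6.7%. An unadjusted p under 0.05 with a higher level was found in 7 receptors and in 6.61% of genes. Without GW2580 3 it was found in 2 receptors, Tlr4 and Tlr8, and in 5.41% of genes, and it was found in 3 receptors without Vehicle 2, Vehicle 4 or GW2580 1. An adjusted p under 0.05 was found in 0% of genes by edgeR's quasi-likelihood test, and 3046 genes were called at the unadjusted p under 0.05. DESeq2 gave 177 genes and edgeR's likelihood ratio test 53 genes at an adjusted p under 0.05, with none of the receptors among them. The gene lengths of the receptors, which can exceed those of their transcripts (Tlr4, 7891 against 4077 bases), ranged from 3358 to 7891 bases. Of the 8618 genes tested in this range of gene length 2.11% were called higher. The median log2 fold change was 0.92 over the receptors, -0.03 over all genes and -0.01 over genes of this length. With library sizes alone as the scaling, the median of all genes was 0.23 and 70.8% of calls were higher, against 37.5% with the factors used here. The same 5 receptors were called under that scaling, with log2 fold changes from 1.15 for Tlr2 to 1.64 for Tlr4.

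The call of 3 receptors rested on GW2580 3, the library with the most microglia marker transcripts. Without it 2 receptors were called, Tlr4 and Tlr8, whereas 3.54% of all genes were called higher. With the mean level of the microglia markers as a term in the model the same 2 receptors were called, with log2 fold changes of 1.11 and 1.18, and those of Tlr2, Tlr7 and Tlr13 were 0.60, 0.74 and 1.14. Of the 10 microglia markers, 9 were measured at a higher level with GW2580 and 1 was called higher, against 48.4% and 4.01% of all genes. Their median log2 fold change was 0.45. Markers of border macrophages summed to 88.6 to 113 CPM in the Vehicle group and to 54.2 to 281 CPM after GW2580, highest in GW2580 3 and lowest in GW2580 5, as were 5 of the receptors. Of 6 of these markers tested, 4 were measured higher and 1 was called higher, against 48.4% and 4.01% of all genes. Their median log2 fold change was 0.96, and Clec10a had 0 counts in every library. In GW2580 4 the summed border macrophage markers were at 76.0 CPM, below every Vehicle library. In that library Tlr1, Tlr2, Tlr4, Tlr6, Tlr7, Tlr8 and Tlr13 lay above every Vehicle library. The part of border macrophages in the levels of the receptors was not tested. With the share of fragments on no exon as a term the same 5 receptors were called as without it, with log2 fold changes from 1.05 for Tlr8 to 1.59 for Tlr13. Leaving out GW2580 5, in which 5 of the receptors were at their lowest among the GW2580 libraries, gave 6 called receptors, the sixth being Tlr9, which was called lower, while 4.39% of all genes were called higher and 13.2% lower. Without Vehicle 2 and Vehicle 5, the libraries with the most glial transcripts, Tlr4 and Tlr13 were called. The receptors passed an adjusted p of 0.05 in 1 setting, without Vehicle 5 and GW2580 5, where edgeR's adjusted p was under 0.05 in Tlr2, Tlr4, Tlr7, Tlr8, Tlr9 and Tlr13, with a smallest value of 0.0126, and in 17.8% of all genes. These libraries had stood apart in earlier results of the same data, so that setting is no independent test.

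Surface and endosomal receptors were then compared as 2 groups within each library, which does not depend on how the library was scaled. The mean log2 CPM of the surface receptors was 4.398 ± 0.190 in the Vehicle group and 5.16 ± 0.73 with GW2580 (SD, n = 5), and that of the endosomal receptors was 4.22 ± 0.23 and 4.73 ± 0.51. In both groups of receptors 4 GW2580 libraries lay above all Vehicle libraries. The surface mean minus the endosomal mean was 0.28, 0.44, 0.23, 0.08 and -0.14 log2 CPM in Vehicle 1 to 5 and 0.64, 0.77, 0.67, 0.27 and -0.20 in GW2580 1 to 5. The difference was higher than in every Vehicle library in GW2580 1 to 3 and lower than in all of them in GW2580 5, so the groups overlapped, with means of 0.18 ± 0.22 and 0.43 ± 0.40. The change of 0.25 was smaller than the SD within the GW2580 group. Its endosomal part includes Tlr9, the receptor measured lower, and the change without Tlr9 was not computed.

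In their calls the classes were 1 receptor apart, with 2 of 5 surface receptors (median log2 fold change 0.85) and 3 of 5 endosomal receptors (median 1.00) called higher. The endosomal receptors were the more divided group, from -0.61 for Tlr9 to 1.36 for Tlr13, whereas all 5 surface receptors were measured higher, from 0.37 for Tlr5 to 1.47 for Tlr4. Counted per length, as TPM, in which counts are divided by gene length and scaled to a common total, the endosomal receptors made up 48.5 ± 6.84% of the summed receptor level in the Vehicle group and 48.8 ± 7.86% with GW2580.

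**Figure D3:**
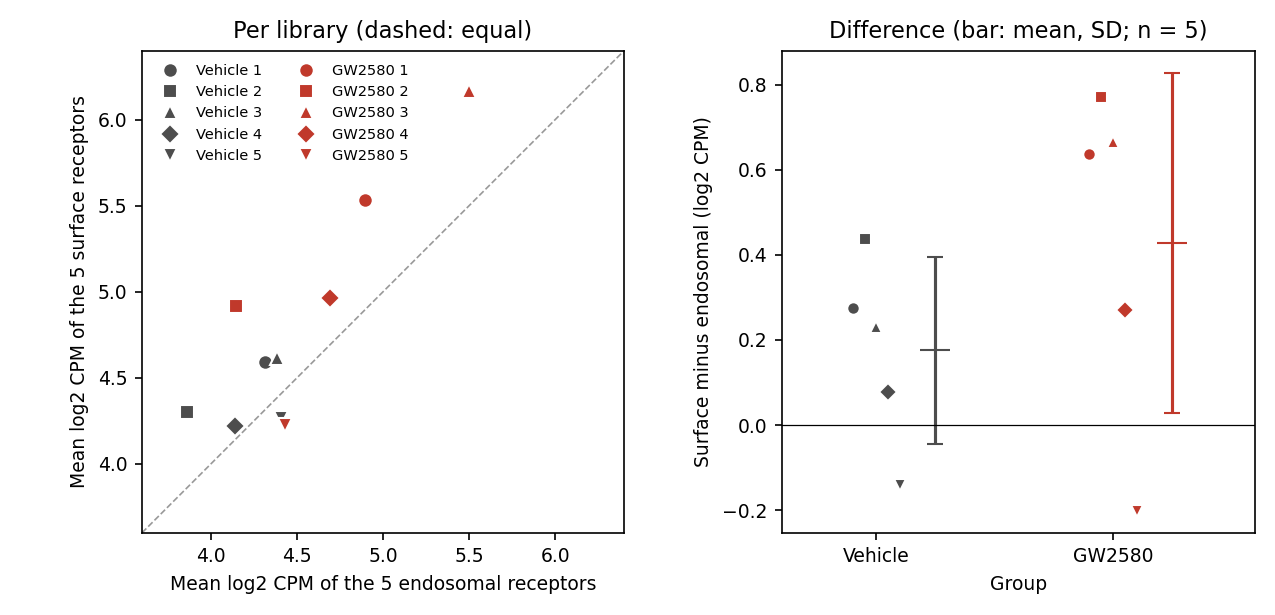
Left, mean log2 CPM of the 5 surface receptors against that of the 5 endosomal receptors, 1 point per library, with a dashed line where both are equal. Right, the difference of the means in each library with the mean and SD of each group (n = 5). On this scale, which is not divided by gene length, Vehicle 5 and GW2580 5 were the libraries with a higher endosomal than surface mean. In summed TPM the endosomal level also exceeded the surface level in Vehicle 4, GW2580 3 and GW2580 4. The groups overlapped in the difference of the means.

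Levels of different receptors were compared per length, in TPM. With Vehicle, Tlr2 was the highest at 38.9 ± 9.48 TPM, followed by Tlr13 at 25.7 ± 15.1, Tlr7 at 19.9 ± 8.64, Tlr3 at 11.5 ± 4.57, Tlr1 at 10.5 ± 2.25, Tlr6 at 6.16 ± 1.05, Tlr4 at 5.23 ± 1.49, Tlr9 at 5.09 ± 0.755, Tlr5 at 2.47 ± 1.07 and Tlr8 at 0.739 ± 0.218 TPM (SD, n = 5). Neighbours in this order overlapped in their ranges, apart from Tlr1 over Tlr6 and Tlr5 over Tlr8. The order depends on the length used. Tlr4 was divided by a gene length of 7891 bases, whereas its longest transcript has 4077 bases. By Vehicle CPM, without division by length, Tlr7 was at place 2, Tlr13 at 3, Tlr4 at 5, Tlr1 at 6 and Tlr6 at 7. By mean TPM the first was a surface receptor and the next 3 were endosomal, but the overlap of neighbours leaves this order open.

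With GW2580 the first 3 places were held by the same receptors, Tlr2 at 108 ± 54.2, Tlr13 at 90.9 ± 59.7 and Tlr7 at 54.2 ± 29.6 TPM, and all neighbours overlapped. Tlr4 moved from place 7 to place 5 at 21.6 ± 12.9 TPM and Tlr9 from place 8 to place 9 at 4.19 ± 2.12 TPM. TPM values carry no scaling factor, so differences between the groups were tested on counts and not on this scale.

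**Figure D4:**
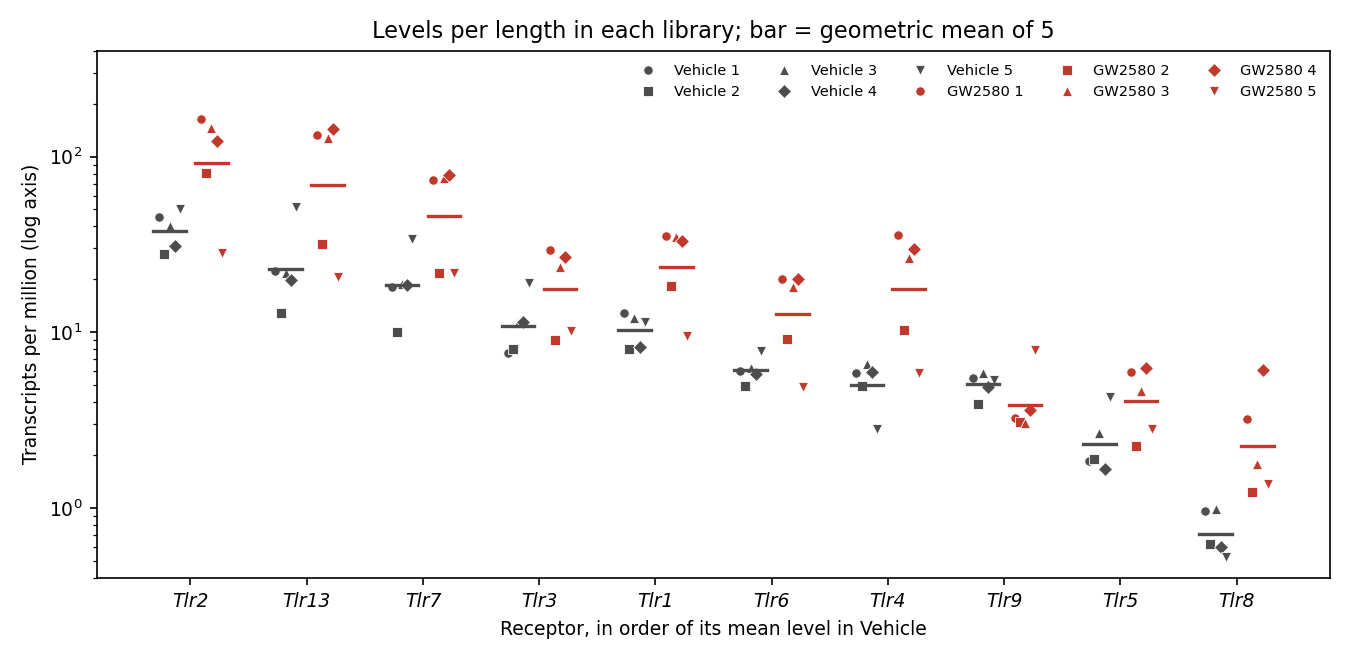
TPM (log axis) of each receptor in each library, in the order of the mean in Vehicle, grey for Vehicle and red for GW2580, with a bar at the geometric mean of 5 libraries. Tlr2, Tlr13 and Tlr7 led in both groups and Tlr8 was lowest in both.

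Sex was examined because Tlr7, Tlr8 and Tlr13 lie on the X chromosome. With treatment in the model, the female over male log2 fold change was 0.51 ± 0.42 for Tlr7, 0.00 ± 0.42 for Tlr8 and 0.49 ± 0.50 for Tlr13 (SE; 4 male and 6 female mice). No receptor passed the edgeR test of sex at an unadjusted p under 0.05, with p-values from 0.253 to 0.992, and no sex by treatment interaction passed it, with p-values from 0.333 to 0.992. The spread allowed differences of this size to go undetected.

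The other genes of the pathway were taken from lists grouped by role. Of 82 genes, 80 were tested, of which 2 were called higher (against 4.01% of all genes) and 3 lower (against 6.7%), and their median log2 fold change was 0.28. Neither share exceeded that of all genes. Without Vehicle 5 and GW2580 5 the pathway genes had 11 calls higher and 6 lower, when 7.08% and 15.2% of all genes were called.

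Several of the co-receptors and ligand carriers listed deliver ligands to the surface receptors, and the list also holds Cd180 and Ly86. Of 6 tested, 0 were called higher and 1, Lbp (the lipopolysaccharide binding protein), lower, against 4.01% and 6.7% of all genes. The median log2 fold change was -0.47. Lbp was at 574 CPM in Vehicle 5, at 6.43 to 18.5 CPM in the other Vehicle libraries and at 7.38 to 27.5 CPM after GW2580. Its log2 fold change of -3.004 (edgeR p = 0.0192, adjusted p = 0.280; exact permutation p = 0.794) was 0.43 without Vehicle 5, so the call rests on that library. Cd14, which hands lipopolysaccharide to TLR4, was at 1000.3 ± 405 CPM in the Vehicle group and 999 ± 586 CPM after GW2580, and Ly86, the partner of the TLR relative CD180, at 1208 ± 612 and 657 ± 372 CPM (SD, n = 5; edgeR adjusted p = 0.487). Ly86 was lowest in GW2580 4 (173 CPM) and in Vehicle 5 (190 CPM).

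The next list holds genes of receptor folding, transport and proteolysis, several of which act on the endosomal receptors. Of 17 tested, 0 were called higher and 2 lower, against 4.01% and 6.7% of all genes. The median log2 fold change was 0.25. The genes called lower were Rnaset2a (85.02 ± 38.0 CPM in the Vehicle group and 37.9 ± 21.2 CPM after GW2580, log2 fold change -1.16 ± 0.52, edgeR p = 0.0403, adjusted p = 0.321, exact permutation p = 0.135) and Rnaset2b (56.7 ± 22.9 and 25.5 ± 12.6 CPM, -1.15 ± 0.46, edgeR p = 0.0256, adjusted p = 0.291, exact permutation p = 0.0556), which encode RNase T2, an endosomal nuclease that cuts RNA. Both were lowest in GW2580 4. They are near-identical copies that can share reads, so they are not separate observations. The call of Rnaset2a was lost without any one of Vehicle 1 to 4, GW2580 1, GW2580 3 and GW2580 4 (log2 fold changes from -1.23 to -0.92), and also with sex (-1.14), the replicate block (-1.28) or the share on no exon (-1.08) as a term, and that of Rnaset2b without Vehicle 2, Vehicle 4, GW2580 1 or GW2580 4 (-1.08 to -0.92). The cathepsins Ctss and Ctsb, which cleave endosomal receptors, were the most abundant of the list at 7185 ± 2964 and 2858 ± 115 CPM in the Vehicle group and 5564 ± 2660 and 3465 ± 1953 CPM after GW2580, and neither passed the test (edgeR adjusted p = 0.767 and 0.787).

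The adaptors, kinases and transcription factors carry the signal to the nucleus. Of 7 adaptors, 17 kinases and ubiquitin ligases and 10 transcription factors, 0 were called in either direction. Of all genes, 4.01% were called higher and 6.7% lower, so lists this small may hold few calls. The median log2 fold changes were 0.34, 0.39 and 0.43. Myd88, the adaptor of all these receptors but TLR3, was at 106 ± 16.8 CPM in the Vehicle group and 134 ± 76.4 CPM after GW2580 (log2 fold change 0.34 ± 0.38, edgeR adjusted p = 0.685), and Pik3ap1 at 121 ± 70.7 and 229 ± 136 CPM (0.93 ± 0.48, edgeR adjusted p = 0.377). Irak1 and Irak2, kinases that bind MyD88, had log2 fold changes of -0.03 ± 0.59 and 0.73 ± 0.39. Irf5 and Irf8, of the interferon regulatory factors, had values of 0.73 ± 0.38 and 0.34 ± 0.38.

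The negative regulators and the genes that TLR signalling induces stand at the far end of the pathway. Of 12 negative regulators 0 were called, whereas 4.01% of all genes were called higher and 6.7% lower. The most abundant, Nfkbia (the inhibitor of NF-kB) and Tnfaip3 (the deubiquitinase A20), had log2 fold changes of -0.64 ± 0.54 and 0.85 ± 0.57. Of 11 induced genes tested, 2 were called higher and 0 lower, against 4.01% and 6.7% of all genes. Their median log2 fold change was -0.06. Nfkbiz, an atypical IkB protein in the nucleus, was at 231, 132, 247, 152 and 313 CPM in the Vehicle group and at 573, 395, 859, 264 and 243 CPM after GW2580 (log2 fold change 1.12 ± 0.42, edgeR p = 0.0197, adjusted p = 0.281, exact permutation p = 0.0476). The call was lost without Vehicle 2 (0.98), Vehicle 4 (1.02) or GW2580 3 (0.78), and with the microglia marker mean as a term (0.80).

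Ptgs2, the inducible cyclooxygenase, was at 2.35 to 12.7 CPM in the Vehicle group and at 5.48 to 30.4 CPM after GW2580 (1.20 ± 0.49, edgeR p = 0.0269, adjusted p = 0.295, exact permutation p = 0.0794), and the call was lost without Vehicle 3 (1.09), Vehicle 4 (0.98), GW2580 1 (0.82) or GW2580 3 (1.17), and with the microglia marker mean as a term (1.09). Il1b, the most abundant cytokine of the list, was at 188 ± 188 CPM in the Vehicle group and 138 ± 97.0 CPM after GW2580 (edgeR adjusted p = 0.759). Tnf had 0 counts in all 10 libraries and was not tested, and an exact 0 in every library may not reflect its expression.

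**Figure D5:**
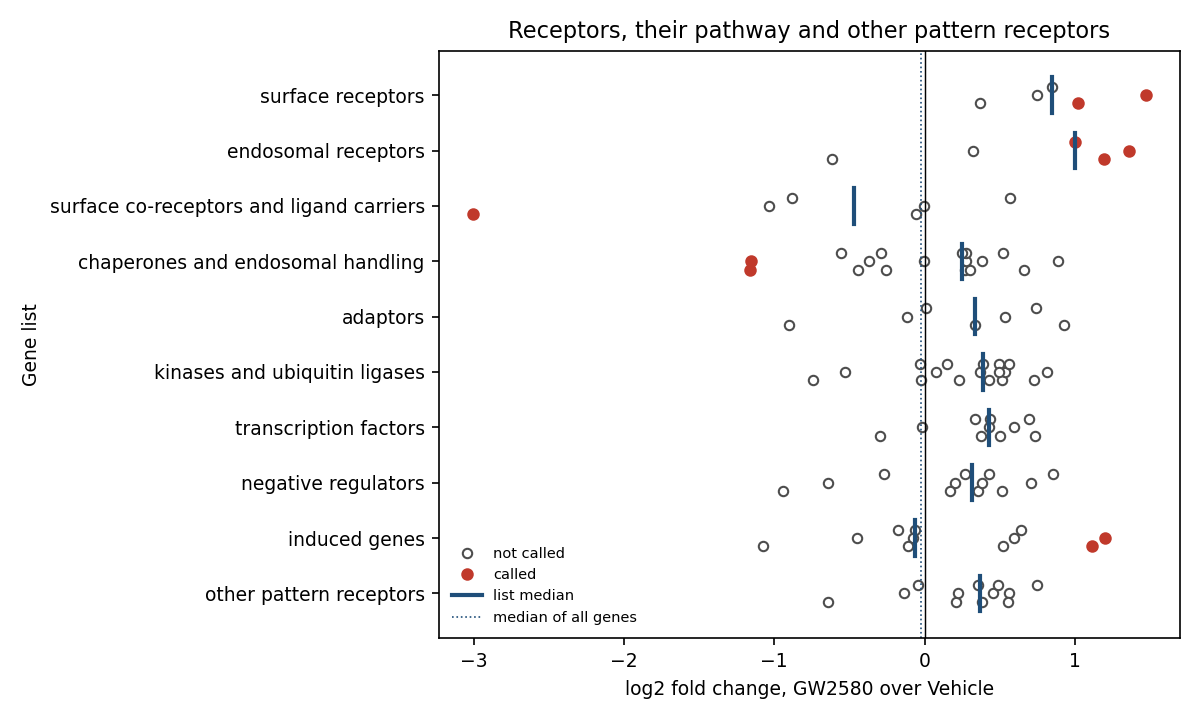
log2 fold change (GW2580 over Vehicle, edgeR) of the receptors, of the pathway genes tested and of other pattern receptors, 1 row per list, filled red where called, with a bar at the median of each list and a dotted line at the median of all genes. The medians of the receptor lists, 0.85 and 1.00, exceed those of the other lists, which lie between -0.47 and 0.43.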

How the data were processed

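RNA of CD11b-selected microglia from 10 mice was made into libraries with a SMART-Seq v4 kit and sequenced in pairs. The authors aligned the reads with STAR to GRCm38 and deposited unnormalized fragment counts per RefSeq gene together with gene lengths and the counts of unassigned fragments per library. The file header names featureCounts 1.6.3, and fragments were counted once, on exons, regardless of strand. Groups, sex and replicate numbers came from the labels.

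Genes had to exceed 1 CPM in 3 or more libraries, and libraries were scaled by TMM factors. Treatment was tested on counts across 28419 genes with edgeR's quasi-likelihood F test (edgeR 4.0.16, limma 3.58.1, R 4.3.3), treatment being the only term, with Benjamini-Hochberg adjustment. A gene was called at a fold over 2 and an unadjusted p under 0.05, the rule of the study. Single receptors were also tested by a two-sided exact permutation test on log2 CPM (prior count 2) over 252 splits. TPM were counts divided by length and scaled to the sum of a library. Surface and endosomal means carry no test. Fits were tested on simulated data with planted changes larger than those of the receptors. That test does not show how well changes of their size are found. Symbols and coordinates came from the RefSeq gene table of GRCm38.p6, which held 46029 of 46152 genes and all 176 symbols listed.

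Text names all members, the 2 genes of highest mean CPM and up to 3 called genes of smallest p in each pathway list, and the 3 genes nearest to each class mean. Members and lists were chosen with earlier results of these data known. In all, 24 alternatives were set for the fold changes, with DESeq2 1.42.0 among them, and removal of the trend with gene length (loess span 0.5) was added after seeing the data. Tables and figures were made with Python 3.11.15, numpy 2.4.6, pandas 2.3.3, scipy 1.17.1 and matplotlib 3.10.9. The reads carry no molecular identifiers and so do not count molecules, and p-values rest on the spread between mice.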

Additional observations from a re-analysis of the deposited data

Results flagged for a closer look

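Tlr4 in Vehicle 5 was at 10.1 CPM, and its gap to the next Vehicle library took up 0.827 of the range of the group on the log2 scale, above the critical value of 0.71 for 5 samples. It was the 1 library flagged among 26 groups of 5 values examined, where chance flags about 1 in 20. Without Vehicle 5 the log2 fold change of Tlr4 was 1.28, and it was still called.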

How the results depend on the processing

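All 10 receptors kept their direction under every alternative that gave a value, and Tlr8 had none under the filter of 5 CPM in 5 libraries. Of the 5 receptors called, 3 were called with DESeq2, with limma-voom, with RLE factors and with the glial and neuronal marker mean as a term, and 2 with the microglia marker mean as a term and without Vehicle 2 and Vehicle 5. Without 1 library, 2 to 6 receptors were called, and the surface median was 0.49 to 0.96 and the endosomal median 0.58 to 1.17. Counts of all genes called were 4802 with no filter, 873 with the filter of 5 CPM in 5 libraries, 2030 with the microglia marker mean, 1730 with the percentage of fragments on no exon and 6057 without Vehicle 5 and GW2580 5, and ranged from 1684 to 4848 without 1 library. The surface minus endosomal change stayed positive, from 0.13 with the microglia marker mean to 0.53 with medians in place of means. The endosomal class holds Tlr9, the 1 receptor measured lower (log2 fold change -0.61), which lowers the endosomal mean. Every alternative kept Tlr9 and the change without it was not computed, so the positive sign may rest on Tlr9. With all libraries the medians of the single log2 fold changes had the opposite order, 0.85 for surface and 1.00 for endosomal receptors. The female over male log2 fold change turned without Vehicle 5 and GW2580 5 for Tlr1 (0.0902), Tlr2 (0.0183), Tlr4 (0.219) and Tlr9 (-0.000397). With the replicate block, 2 receptors were called (Tlr4 and Tlr8), and the cause of this was not tested. Libraries of the same number share a number alone: their deviations from the group means correlated at -0.39 to 0.13, and 1 of 10 libraries correlated best with its own number. The cause of the other shifts was not tested. Counts of 23 to 166 limit the precision of Tlr8.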

Other observations

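Other receptors of microbial patterns were counted beside the TLRs. Of 12 genes of the nucleotide and lectin receptor families, 0 were called, against 4.01% of all genes called higher and 6.7% lower. Of the 12, 9 were measured at a higher level with GW2580, against 48.4% of all genes, and the median log2 fold change was 0.37. Sting1, the adaptor of cytosolic DNA sensing, was at 495 ± 151 CPM in the Vehicle group and 578 ± 303 CPM after GW2580 (SD, n = 5), and Mavs, the adaptor of the RIG-I family, at 44.6 ± 27.7 and 65.6 ± 39.4 CPM. Of the TLRs outside the 10 members, Tlr11 was at 1.02 ± 0.807 and 0.969 ± 0.272 CPM and Tlr12, which binds profilin of protozoa, at 7.92 ± 7.64 and 12.4 ± 7.75 CPM (edgeR adjusted p = 0.579).

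Within the family, likeness was measured as the root mean square difference of mean-centred log2 CPM over the 10 libraries, which share treatment, scaling and cell makeup. The closest pairs were Tlr1 with Tlr6 (0.19), Tlr1 with Tlr2 (0.20) and Tlr5 with Tlr3 (0.24), and the most distant was Tlr9 with Tlr13 (1.53). Of 7573 other genes above a mean of 20 CPM, those nearest to the surface mean were Parp9 (0.11), Rasa4 (0.12) and Sla (0.13), and those nearest to the endosomal mean were P2rx7 (0.11), Ptprj (0.12) and Slc8a1 (0.13).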
